A study of Homo sapiens with 3 samples.

Results

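The 51 genes described here encode the proteins that license, unwind and copy DNA at replication origins and forks. They were taken as a fixed list of gene names covering the origin recognition complex, licensing factors, helicase, polymerases, clamp and fork proteins, and no measured value enters the rule. All 51 were found among the 15808 genes of the count table by matching Ensembl IDs to GENCODE 29 symbols. RNA sequencing of OCI-Ly10 cells after 6 h of MZ1 gave their levels in 3 replicate libraries. This established human line is a model of diffuse large B cell lymphoma, and MZ1 is a degrader that joins a BET bromodomain ligand to a ligand of the VHL ubiquitin ligase. The labels form 1 group and give neither the dose nor whether the replicates were separate cultures. Untreated cells were not analysed here, so the values are levels in treated cells and their spread between libraries, not an effect of MZ1. The spread may be technical.

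Replication starts in G1, when the origin recognition complex, CDC6 and CDT1 load the MCM2-7 ring onto DNA. In S phase the DBF4-dependent kinase CDC7, with CDC45 and GINS, turns the ring into the active helicase, and polymerases alpha, delta and epsilon copy the strands with the clamp PCNA. Transcription of many of these genes is driven by E2F factors and rises as cells enter S phase. Replication genes are high in dividing lymphoma cells, and bulk RNA cannot tell fewer cells in S phase from less RNA per cell.

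The promoters of the list were read for the letters that E2F factors bind, because E2F control is the textbook feature that the list was not chosen on. RefSeq windows of 300 bases on GRCh38.p14, 250 before and 50 after each annotated start, were matched to 45 of the 51 genes, in 58 windows, and not to MCM4, MCM5, GINS4, POLD3, RPA2 and RPA3. An E2F-type match was any of TTTCCCGC, TTTGGCGC or TTTCGCGC on either strand. It was held by 22 of the 45 genes (48.9%), against 6.10% (466) of 7642 genes tested below that have a window, and by 961 of all 35116 windows (2.74%). Gene by gene, 11 of the 45 genes held TTTCCCGC, 9 held TTTGGCGC and 5 held TTTCGCGC. CCAAT, the NF-Y letters, was held by 26 of the 45 genes (57.8%) against 44.0% of genes tested, and the E-box CACGTG by 10 (22.2%) against 13.5%. A match describes letters and is not a measured binding site.

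The windows of MCM2, MCM3, MCM6 and MCM7, 4 of the 6 helicase genes, and of PCNA, the gene of the list with the highest mean level per kb, are shown 5′ to 3′ on the gene's strand, with the E2F-type matches in capitals. The run TTTCGCGCGAAA in MCM2 holds TTTCGCGC and, overlapping it on the other strand, the same letters, and MCM6 holds TTTGGCGCGAAA at 2 places, where TTTGGCGC is overlapped by TTTCGCGC read on the other strand.
MCM2 (chr3:127598161-127598460, plus strand): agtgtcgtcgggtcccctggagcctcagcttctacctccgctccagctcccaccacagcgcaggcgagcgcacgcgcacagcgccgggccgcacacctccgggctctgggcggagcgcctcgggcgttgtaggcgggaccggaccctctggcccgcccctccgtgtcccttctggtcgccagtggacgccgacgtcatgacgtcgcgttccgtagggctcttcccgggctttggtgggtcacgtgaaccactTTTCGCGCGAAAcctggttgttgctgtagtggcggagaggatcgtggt
MCM3 (chr6:52284693-52284992, minus strand): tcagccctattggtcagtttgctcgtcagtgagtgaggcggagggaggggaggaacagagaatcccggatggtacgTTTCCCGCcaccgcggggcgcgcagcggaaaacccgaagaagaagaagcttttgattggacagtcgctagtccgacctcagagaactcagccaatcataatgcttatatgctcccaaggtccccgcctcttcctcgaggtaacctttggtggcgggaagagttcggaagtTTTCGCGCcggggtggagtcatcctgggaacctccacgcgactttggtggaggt
MCM6 (chr2:135876394-135876693, minus strand): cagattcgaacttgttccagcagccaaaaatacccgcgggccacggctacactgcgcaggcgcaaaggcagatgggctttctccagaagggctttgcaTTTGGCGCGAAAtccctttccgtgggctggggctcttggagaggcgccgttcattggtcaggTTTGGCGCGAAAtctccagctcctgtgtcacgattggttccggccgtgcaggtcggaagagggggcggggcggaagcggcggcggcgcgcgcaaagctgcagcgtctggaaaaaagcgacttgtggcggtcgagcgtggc
MCM7 (chr7:100101348-100101647, minus strand): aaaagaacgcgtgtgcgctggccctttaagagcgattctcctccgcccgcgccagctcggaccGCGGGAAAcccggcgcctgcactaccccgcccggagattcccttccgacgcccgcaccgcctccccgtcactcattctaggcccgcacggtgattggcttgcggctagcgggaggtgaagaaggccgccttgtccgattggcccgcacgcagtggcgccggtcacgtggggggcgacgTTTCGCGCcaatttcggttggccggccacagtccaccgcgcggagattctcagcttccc
PCNA (chr20:5126573-5126872, minus strand): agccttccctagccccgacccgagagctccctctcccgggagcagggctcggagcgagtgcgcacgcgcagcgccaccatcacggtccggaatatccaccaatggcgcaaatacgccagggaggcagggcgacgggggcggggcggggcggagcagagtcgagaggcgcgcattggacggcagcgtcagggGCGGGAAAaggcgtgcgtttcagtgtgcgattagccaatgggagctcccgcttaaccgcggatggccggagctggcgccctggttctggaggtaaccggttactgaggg
MCM7 has 3 annotated windows and PCNA 2, of which 1 each held a match. Genes with and without a match had overlapping levels: the 22 with one had medians of 9.08, 12.8 and 10.4 CPM per kb in replicates 1, 2 and 3, and the 23 without one had 17.0, 9.68 and 10.7 CPM per kb.

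Replicate 1 had a column total of 5474462 counts, replicate 2 of 1441246 and replicate 3 of 1314812. Levels are CPM, the count relative to the TMM-scaled library, and 1 count is worth 0.20, 0.629 and 0.767 CPM. The 51 genes held 25593, 7142 and 5663 counts, or 0.467%, 0.496% and 0.431% of each library. Of 6 B cell marker genes all 6 were measured, with summed levels between 1120.0 and 1976 CPM, and CD79A, a chain of the B cell receptor, had 437, 353 and 903 CPM. CD79B had 73.8, 17.6 and 117 CPM. Of the 6, 4 were highest in replicate 1, among them MS4A1 (848, 625 and 739 CPM) and CD22 (53.4, 10.1 and 5.37 CPM). The myeloid markers LYZ and CSF1R (2 of 3) summed to between 4.60 and 8.20 CPM, and the fibroblast markers COL1A1 and COL3A1 (2 of 3) to between 2.51 and 8.40 CPM. KRT8, the 1 epithelial marker of 3 that was used, had 45.8, 17.6 and 33.8 CPM. The remaining markers of these lists and the T cell markers are not analysed here. Replicate 1 stands apart from replicates 2 and 3 in depth and in the counts of antisense genes opposite some members (below), so values are given for each library.

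All 51 genes reached 1 CPM in every library, as did 68% of the 15808 genes. Levels of different genes are compared per kb of merged exons. The median of the list was 15.3, 12.4 and 11.8 CPM per kb in replicates 1, 2 and 3. With each gene averaged over the 3 libraries, the median was 13.0 CPM per kb for the 51 genes. It was 4.77 for the 9979 genes of the variation test with a GENCODE match. Of the 51 genes, 45 lay above the middle of all genes that averaged 1 CPM or more. The list still spanned 2 orders of magnitude, from GINS3 at 1.60 ± 0.621 to PCNA at 161 ± 74.5 CPM per kb (SD, n = 3, as for all means that follow). PCNA had 245, 103 and 135 CPM per kb, and in replicate 2 it lay below MCM7 at 118.

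**Figure D1:**
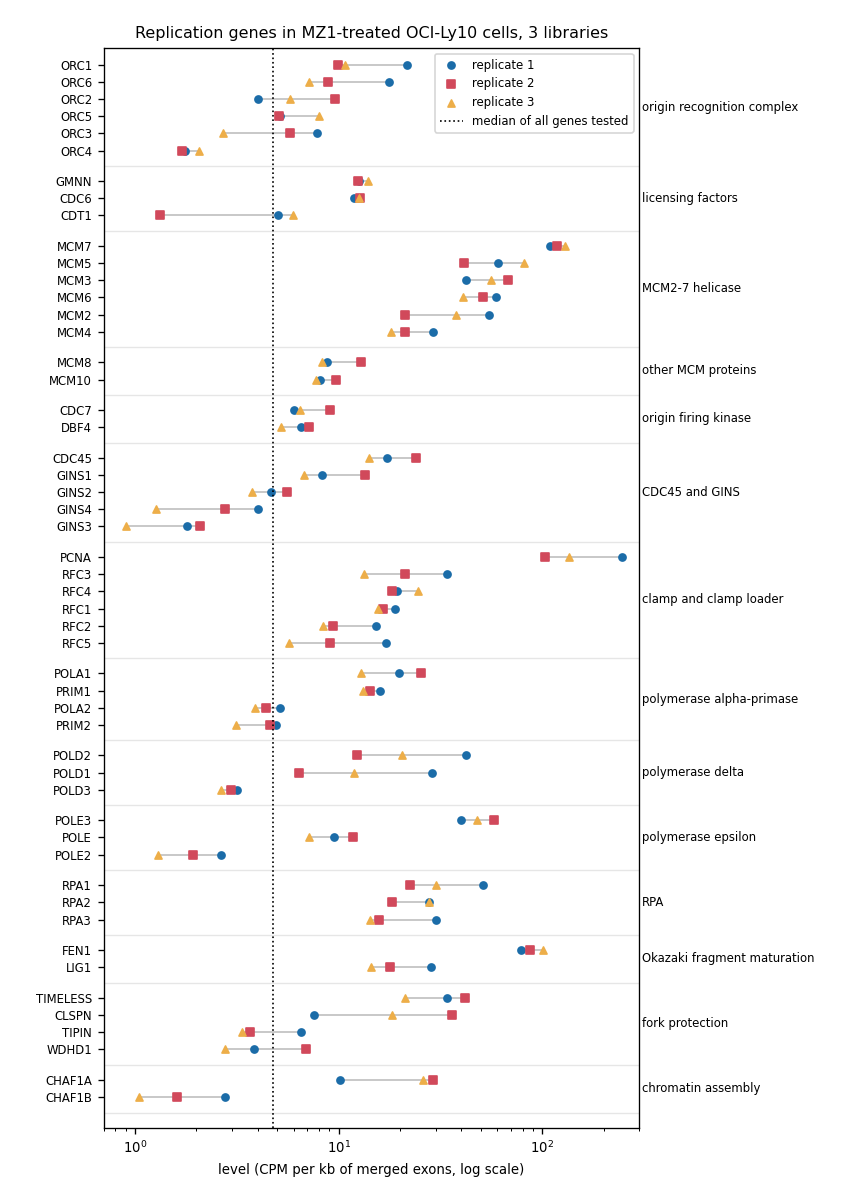
Levels of the 51 replication genes in CPM per kb of merged exons on a log axis, grouped by role, with 1 symbol per library and a grey line over the range of the 3 libraries. The dotted line is the median of all genes tested (4.77), and PCNA, MCM7 and FEN1 lie farthest to the right.

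The origin recognition complex marks origins and recruits the other licensing factors. Its genes had the order ORC1, ORC6, ORC2, ORC5, ORC3 and ORC4 per kb. ORC1 (ENSG00000085840.11, chromosome 1, 52372829 to 52404459, minus strand), the subunit whose level cycles in human cells, had 21.6, 9.95 and 10.7 CPM per kb in replicates 1, 2 and 3, and ORC6 had 17.6, 8.90 and 7.12. ORC4, an ATPase-fold subunit, was lowest in every library at 1.75, 1.69 and 2.07 CPM per kb. The highest subunit exceeded the lowest by 2.83 ± 0.67 on the log2 scale, a 7.09-fold spread. ORC2 (4.01, 9.59 and 5.79 CPM per kb), ORC5 (5.15, 5.06 and 8.03) and ORC3 (7.86, 5.79 and 2.70) changed order from library to library. ORC2 lay above ORC6 in replicate 2 and ORC5 above ORC6 in replicate 3, so their order is not settled. ORC6 lay above ORC3 in every library.

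Among the licensing factors, CDC6, the ATPase that loads the MCM ring, was one of the steadiest genes of the list. CDC6 (ENSG00000094804.8, chromosome 17, 40287633 to 40304657, plus strand) had 66.2, 71.0 and 69.8 CPM, and GMNN, which encodes geminin, the inhibitor of CDT1, had 31.2, 30.8 and 34.5 CPM. CDT1, the loader that geminin binds, had 16.8, 4.40 and 19.9 CPM, from 84, 7 and 26 counts, and is low in replicate 2. CDT1 lay below GMNN in 3 of 3 libraries, with a log2 ratio per kb of -1.87 ± 1.07, which was -1.26 without replicate 2 and -2.80 per kb of the longest transcript. CDC6 and ORC1 were not separated, at -0.10 ± 0.66, because ORC1 was higher in replicate 1 and CDC6 in replicates 2 and 3.

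The 6 genes of the MCM2-7 helicase were among the highest of the list and all 6 lay above percentile 88 of expressed genes per kb. MCM7 (ENSG00000166508.16, chromosome 7, 100092728 to 100101940, minus strand) had 480, 519 and 567 CPM, the highest CPM of the list in replicates 1 and 2, and 119 ± 9.88 CPM per kb. MCM5 had 443, 301 and 596 CPM, and was the highest in replicate 3. MCM3 had 154, 247 and 205 CPM and MCM6 243, 212 and 167 CPM. MCM2 had 269, 104 and 185 CPM and MCM4 203, 148 and 126 CPM. The subunits form a ring with 1 copy of each, but per kb MCM7 lay above MCM4, the lowest, in every library, with a log2 spread of 2.41 ± 0.47 or 5.31-fold. MCM2 lay below MCM7 by a log2 ratio of -1.75 ± 0.74 in 3 of 3 libraries. The remaining MCM genes were lower: MCM8, a helicase of recombination repair, had 8.73, 12.9 and 8.28 CPM per kb, and MCM10, which helps activate the helicase, 8.10, 9.68 and 7.74.

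CDC7 and DBF4, the kinase that fires origins and its activator, had nearly equal levels. CDC7 had 21.4, 32.1 and 23.0 CPM and DBF4 30.0, 32.7 and 23.8 CPM, and their log2 ratio per kb was 0.18 ± 0.25, smaller than its spread. CDC45, which completes the helicase with GINS, had 17.2, 23.9 and 14.0 CPM per kb and lay above MCM10 in every library (log2 ratio of MCM10 over CDC45 -1.08 ± 0.22). That order rests on the length correction, since the log2 ratio of CPM was -0.15, -0.36 and 0.080 in replicates 1, 2 and 3. GINS1, at 8.31, 13.4 and 6.79 CPM per kb, was the highest of the 4 GINS subunits in 3 of 3 libraries, and GINS3, at 1.80, 2.09 and 0.902, the lowest. GINS3 rested on 46, 17 and 6 counts and GINS4 on 110, 24 and 9. The 4 subunits form a tetramer with 1 copy of each, and the log2 spread of their RNA was 2.52 ± 0.33.

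PCNA, the sliding clamp, was far above the clamp loader. PCNA (ENSG00000132646.9, chromosome 20, 5114953 to 5126626, minus strand) had 361, 152 and 199 CPM, and lay above RFC1, the large loader subunit, by a log2 ratio per kb of 3.15 ± 0.52, or 8.86-fold, and 0.96 ± 0.52 without length correction. PCNA works as a ring of identical subunits, while RFC has 1 copy of each of its 5 subunits. The 5 RFC genes had a log2 spread of 1.48 ± 0.53. At the ends of the order by mean level were RFC3, at 34.1, 21.2 and 13.3 CPM per kb, and RFC5, at 17.0, 9.09 and 5.67. RFC1 (19.0, 16.5 and 15.6 CPM per kb) was steady, RFC4 had 19.3, 18.2 and 24.6 and RFC2 15.3, 9.38 and 8.33 CPM per kb. No subunit of RFC was the highest in all 3 libraries.

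Polymerase epsilon, which copies the leading strand, had the widest log2 spread of the 8 complexes, as compared over the listed subunits. In replicates 1 and 2 that rank rests on leaving out POLD4 (next paragraph). Polymerases delta and epsilon entered with 3 subunits each, without POLD4 and POLE4, which belong to the further list below. POLE4 had 6.04, 4.09 and 4.99 CPM per kb, between POLE and POLE2 in every library. The histone-fold subunit POLE3 had 39.8, 57.7 and 48.0 CPM per kb, the catalytic subunit POLE 9.43, 11.8 and 7.11, and POLE2 2.64, 1.91 and 1.30. The log2 spread was 4.56 ± 0.64, a 23.5-fold range, with the same order in 3 of 3 libraries. POLE3 also works in a chromatin remodelling complex. POLE2 (ENSG00000100479.11, chromosome 14, 49643555 to 49688422, minus strand) rested on 39, 9 and 5 counts, and its 5 counts in replicate 3 allow 1.25 to 8.95 CPM (exact 95% Poisson interval, counting error only).

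In polymerase delta, which copies the lagging strand, POLD2 and POLD1 lay above POLD3 in every library, and POLD3 was the steady member at 3.16, 2.97 and 2.65 CPM per kb. POLD4, left out of the spread, lay below POLD3 in every library. It had 1.11, 0.206 and 1.01 CPM per kb, from only 17, 1 and 4 counts. POLD2, the highest, had 42.4, 12.2 and 20.3 CPM per kb. From POLD2 down to POLD4, delta spanned more than epsilon in replicates 1 and 2 and less in replicate 3. The rank of epsilon as the widest therefore holds for the listed subunits only. POLD1, the catalytic subunit (ENSG00000062822.11, chromosome 19, 50384204 to 50418016, plus strand), had 141, 31.4 and 58.3 CPM, and POLD2 had 157, 45.3 and 75.2 CPM, both high in replicate 1 and low in replicate 2. POLE over POLD1 therefore had log2 ratios per kb of -1.60, 0.87 and -0.74, with no order between the catalytic subunits. In polymerase alpha-primase, which makes the primers, POLA1 had 19.7, 25.5 and 12.8 CPM per kb and PRIM1 16.0, 14.2 and 13.2. Their partners POLA2 (5.13, 4.39 and 3.89) and PRIM2 (4.93, 4.58 and 3.12) were lower in every library, by log2 ratios of 2.05 ± 0.42 for POLA1 over POLA2 and 1.79 ± 0.23 for PRIM1 over PRIM2, the second of which was 0.85 without length correction.

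RPA, the trimer that coats single-stranded DNA, was the most even complex per kb, with a log2 spread of 0.81 ± 0.28, though not without length correction (1.95). RPA1 had 51.2, 22.4 and 29.9 CPM per kb, RPA2 27.7, 18.4 and 27.7, and RPA3 30.1, 15.8 and 14.2. FEN1, the flap nuclease of Okazaki fragments, had 78.9, 87.2 and 101 CPM per kb, and LIG1, the ligase that seals them, 28.3, 17.9 and 14.3. FEN1 exceeded LIG1 in all 3 libraries, with a log2 ratio of 2.19 ± 0.67, and of 0.78 without length correction.

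Partners of the fork protection and chromatin assembly complexes had unequal levels. TIMELESS had 34.0, 41.9 and 21.1 CPM per kb and its partner TIPIN 6.53, 3.65 and 3.34, a log2 ratio of 2.80 ± 0.58, and of 3.87 without length correction. CLSPN, which encodes the checkpoint mediator claspin, had 7.54, 36.1 and 18.3 CPM per kb, and WDHD1, which links polymerase alpha to the helicase, 3.85, 6.89 and 2.76. CHAF1A, the large subunit of the histone chaperone CAF-1, had 10.1, 29.1 and 26.1 CPM per kb and CHAF1B, its partner, 2.77, 1.60 and 1.05. CHAF1A over CHAF1B had a log2 ratio of 3.48 ± 1.45, from 1.83 in replicate 1 to 4.51 in replicate 3, and of 4.31 without replicate 1.

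Over the 12 gene pairs compared per kb, 9 kept their direction in 3 of 3 libraries and 3 did not (CDC6 over ORC1, CDC7 over DBF4 and POLE over POLD1). The exact two-sided sign-flip permutation test gave p = 0.25 for each of the 9, the smallest p that 3 libraries allow, and 0.333 after Benjamini-Hochberg adjustment over the 12 pairs, so no pair could pass 0.05. In each of those 9 pairs the mean log2 ratio exceeded its SD over libraries.

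**Figure D2:**
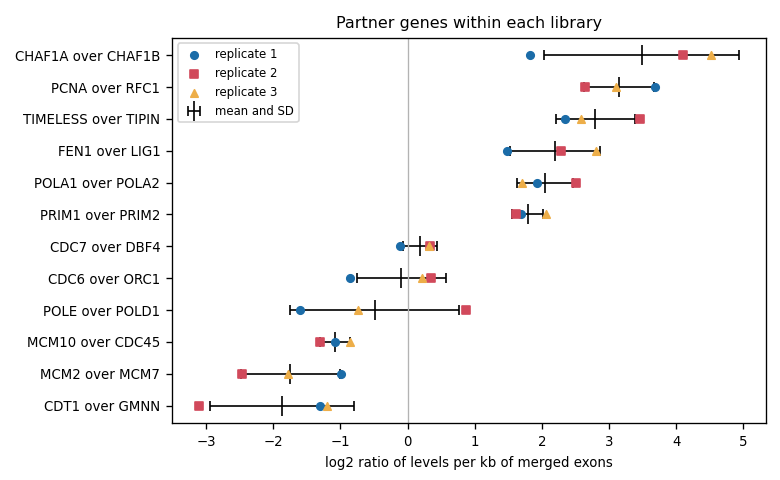
Log2 ratios per kb of 12 pairs of partner genes, the first gene over the second, with 1 symbol per library and the mean and SD over 3 libraries in black. CHAF1A over CHAF1B (3.48) and PCNA over RFC1 (3.15) are the highest means, and CDC6 over ORC1, CDC7 over DBF4 and POLE over POLD1 cross 0.

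The share of the 51 genes called as varying between libraries was near that of all genes at the same count filter. It was lower among genes of higher count and by fold. It was higher without replicate 1 or replicate 2, and near that of all genes without replicate 3. The leave-out shares are not matched for count, since the median was 49.7 CPM for the 51 genes and 23.3 for the genes tested with a GENCODE match. The counts of each gene averaging 10 or more were compared over the libraries by chi-square with equal expression as the null. At a Benjamini-Hochberg adjusted p under 0.05, 35 of the 51 (68.6%) were called, against 67.2% of 10016 genes. The test compares libraries, not conditions, and passes more easily at high counts. Among genes averaging 50 counts or more, 31 of 42 members (73.8%) were called, against 81.1% of 5707 genes. Without replicate 1, 20 of 50 testable members differed between replicates 2 and 3, against 33.8% of 8447 genes. Leaving out replicate 2 gave 27 of 51 (45.2% of genes), and leaving out replicate 3 gave 30 of 51 (56.2%). By fold, 20 of the 51 genes (39.2%) differed by more than 2-fold between their highest and lowest library, against 52.4% of genes tested.

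The called genes included all 6 of MCM2-7, all 3 RPA genes, all 4 fork protection genes, both Okazaki fragment genes and both chromatin assembly genes. For comparison, 67.2% of all genes tested were called, and 81.1% of those averaging 50 counts or more. The 16 genes not called were CDC6, GMNN, CDC7, DBF4, MCM10, ORC4, ORC5, GINS2, GINS3, RFC1, RFC4, POLA2, PRIM1, PRIM2, POLD3 and POLE2. CDC6 had the smallest range, 1.07-fold (adjusted p = 0.802), and MCM7 a 1.18-fold range that its depth still resolved (adjusted p = 6.08e-04). Calls in each of the 3 pairs of libraries were made for 12 of the 50 members tested in all of them (24.0%), against 14.5% of 8231 genes. Among the 12 were MCM2, MCM5, POLD1, POLD2, POLE, TIMELESS and CLSPN. These shares are not matched for count, and the test passes more easily at high counts.

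CLSPN and CHAF1A were the members with the largest excess of replicates 2 and 3 over replicate 1. CLSPN (ENSG00000092853.12, chromosome 1, 35720218 to 35769967, minus strand) had 40.8, 195 and 99.0 CPM, the counts being 204, 311 and 129 (adjusted p by the chi-square test = 2.34e-77). CHAF1A (ENSG00000167670.14, chromosome 19, 4402662 to 4445018, plus strand) had 43.4, 125 and 112 CPM, from 217, 199 and 146 counts (adjusted p = 4.18e-32). Exons of both overlap an antisense gene with no count in replicate 1: AL354864.1, opposite CLSPN over 280 bases, had 0, 41 and 18 counts, and AC011498.3, opposite CHAF1A over 81 bases, had 0, 20 and 23 counts. UBXN6, a protein-coding gene opposite CHAF1A over 20 bases, had 94, 3 and 22 counts. The part of this overlap in the results for CLSPN and CHAF1A was not tested. Opposite-strand exon overlap occurs in 18 of the 51 genes, against 42.9% of the genes tested. Without a stated strand setting, reads there may belong to either partner. The 18 are MCM2, MCM7, ORC2, ORC4, DBF4, GINS2, GINS3, GINS4, RFC4, RFC5, PRIM1, POLE3, RPA1, RPA3, FEN1, LIG1, CLSPN and CHAF1A. Of the 18, 12 were called as varying, and 23 of the 33 without such exons were. Both shares are near the 67.2% of all genes tested.

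POLD1, POLD2 and PCNA were high in replicate 1 and lowest in replicate 2. POLD1 (adjusted p = 1.64e-36) and POLD2 (2.63e-32) belong to the most GC-rich 3 of the 51 genes, with CDT1. POLD1 has 65.0% GC in its longest transcript, CDT1 64.9% and POLD2 59.1%, while the median of the 51 is 45.5% and that of the genes tested 47.1%. With genes split into 8 equal bins by GC, the top bin had a median log2 difference of -1.37 for replicate 2 minus 1 over all genes. The same difference was -2.15 for POLD1, -1.78 for POLD2 and -1.82 for CDT1, and -0.78, -0.41 and -0.45 after subtraction of the median of the bin. PCNA, with 45.3% GC, had -1.24 for replicate 2 minus 1 both before and after the subtraction (adjusted p = 1.19e-48 over the 3 libraries). PCNA was called in both comparisons with replicate 1 and not between replicates 2 and 3 (adjusted p = 0.0648).

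**Figure D3:**
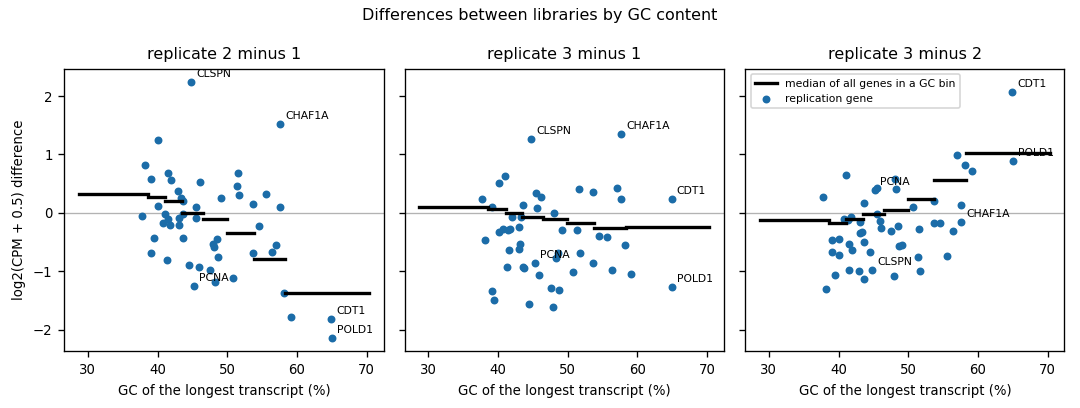
Log2(CPM + 0.5) differences between pairs of libraries for the 51 replication genes (points) against the GC content of the longest transcript, with the median of all genes of at least 10 CPM in each of 8 GC bins as black bars. CLSPN and CHAF1A lie high in both differences from replicate 1, and POLD1 (-2.15) and CDT1 (-1.82) low in replicate 2 minus 1.

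Across the 51 genes, Spearman's rho of GC content with the log2 difference was -0.318 for replicate 2 minus 1, against -0.435 over the 7494 genes of at least 10 CPM. For replicate 3 minus 1 it was -0.0226 against -0.139, and for replicate 3 minus 2 it was 0.387 against 0.466. The genes share libraries and depth, and these values are descriptions.

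The list was low in replicate 3. Of the 51 genes, 29 (56.9%) had their lowest CPM there, against 27.7% of the 10016 genes tested, and 9 were lowest in replicate 1 (32.1% of genes) and 13 in replicate 2 (40.2%). The highest CPM fell in replicate 1 for 24 genes (43.8% of genes), in replicate 2 for 18 (28.7%) and in replicate 3 for 9 (27.4%). All 5 genes of CDC45 and GINS, all 4 of polymerase alpha-primase and 4 of the 6 of PCNA and RFC were lowest in replicate 3. So were 2 of the 6 of MCM2-7, 2 of the 6 of ORC, 1 of the 3 of RPA, 1 of the 3 of polymerase delta and 0 of the 3 licensing factors. The count was 3 of the 4 fork protection genes, 2 of the 3 of polymerase epsilon, both of MCM8 and MCM10, and 1 gene each of CDC7 and DBF4, of FEN1 and LIG1 and of CHAF1A and CHAF1B. For replicate 3 minus 1 the 51 genes had a median log2 difference of -0.39 and the genes tested -0.11. For replicate 3 minus 2 the medians were -0.26 and 0.09. Differences of the list for replicate 2 minus 1 had a median of -0.10, against -0.17 for genes tested. After subtraction of the GC bin median, 39 of the 51 genes were lower in replicate 3 than in replicate 2, with a median of -0.30. The number of genes lowest in replicate 3 ranged from 28 to 33 under the other scalings, thinning to equal depth and the GC subtraction. Replicate 3 is also the shallowest library, and with the libraries thinned to equal depth 30 of the 51 genes were lowest there, against 27.1% of genes. With the deposited log2 values it was 33, against 37.3% of genes.

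**Figure D4:**
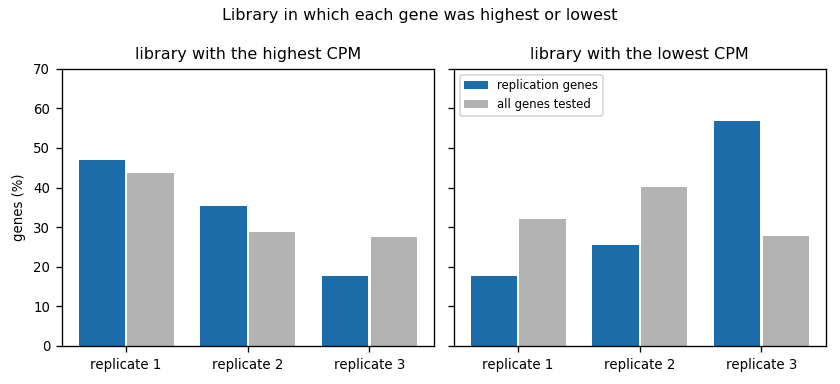
Share of the 51 replication genes (blue) and of the 10016 genes tested (grey) whose highest CPM, on the left, or lowest CPM, on the right, fell in each library. Replicate 3 was the lowest library for 56.9% of the replication genes and 27.7% of the genes tested.

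A further list of 35 replication genes outside the 51, covering origin firing cofactors, accessory subunits, nucleases, topoisomerases and histone chaperones, had a median of 4.65 CPM per kb. Of these, 32 had a mean count of at least 10, and 26 of the 32 were called as varying, against 67.2% of all genes tested. The highest was TOP1, the type I topoisomerase, at 160 ± 31.5 CPM per kb. Next were SSRP1 and SUPT16H, the subunits of the histone chaperone FACT, at 111 ± 27.1 and 73.3 ± 16.2. The lowest was MCM9, the partner of MCM8 in repair, at 0.30 ± 0.105 CPM per kb from 12, 8 and 5 counts. TOP1 had 556, 509 and 733 CPM and SSRP1 515, 848 and 748 CPM. Of the 32 genes, 14 were lowest in replicate 3 (27.7% of all genes tested), 10 in replicate 2 (40.2%) and 8 in replicate 1 (32.1%).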

How the data were processed

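RNA was sequenced from 3 replicate libraries of 1 labelled group, with TruSeq RNA kits, per the labels' protocols. The authors deposited raw read counts per gene and log2 CPM values. STAR, edgeR and hg38 are named in the submitters' processing notes, with no versions. Sources used here do not state the counting tool, strand setting or annotation. All 3 value columns were used, and no reads were reprocessed.

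Counts were scaled with TMM (edgeR 4.0.16, R 4.3.3, factors 0.914, 1.10 and 0.991) to CPM, and logged as log2(CPM + 0.5), a scale that shrinks differences of low genes. Symbols, merged exon lengths and GC content came from GENCODE 29 on GRCh38, and opposite-strand overlaps from pyranges 0.1.4. Variation between libraries was tested with a chi-square test (Poisson, genes averaging 10 counts or more), Benjamini-Hochberg adjusted over all genes. The test was first run on counts simulated with Poisson noise alone, which cannot show how it behaves where libraries spread beyond counting error. Intervals cover counting error only. Partner genes were compared as log2 ratios per kb with exact sign-flip tests. The members, lists, pairs, promoter letters and tests were chosen with earlier results of these data known, and the named genes are all members, the 3 highest and the lowest of the further list, the pairs and the marker genes. Alternatives were DESeq2 1.42.0 size factors, the deposited log2 values, column totals, pseudocounts, count filters, lengths, thinning, GC bins and leaving out each library.
PCNA, RPA2, RFC3, RFC5, POLD2, FEN1 and DBF4 have named pseudogenes in GENCODE 29, and their counts are uncertain where reads could be shared.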

Additional observations from a re-analysis of the deposited data

How the results depend on the processing

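No paired analysis was possible because the samples form 1 group. The tally of 35 varying genes was 36 of 51 under DESeq2 size factors (67.0% of all genes tested) and column totals (67.6%). With no count filter it stayed at 35 of 51, against 51.0% of all genes. After thinning to equal depth it was 32 of 50, against 63.0%. At a mean count of at least 50 it was 31 of 42, where 81.1% of all genes were called. With 1 library left out it ranged from 20 of 50 (without replicate 1, 33.8% of genes) to 30 of 51 (without replicate 3, 56.2%). All 51 genes reached 1 CPM in every library under the other scalings, and 44 reached 10 CPM in every library. The median difference for replicate 2 minus 1 turned to 0.16 with column totals, a scaling that moved the median of all genes tested from -0.17 to 0.09. For replicate 3 minus 2 the median was -0.51 with the deposited log2 values, where all genes tested had -0.15.

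CDC6 over ORC1 turned to 0.72 without length correction, to 0.11 per kb of the longest transcript and ranged from -0.32 to 0.28 (without replicate 1) with 1 library left out. POLE over POLD1 turned to 1.26 and 0.074 under the same length settings and ranged from -1.17 to 0.066 (without replicate 1), and CDC7 over DBF4 to -0.18 without length correction. The mean of each of the other 9 pairs kept its sign under every alternative run, but MCM10 over CDC45 was -0.14 ± 0.22 without length correction, smaller than its spread and at 0.080 in replicate 3. Without length correction the log2 spread was 1.94 within ORC, 2.26 within RFC, 2.58 within polymerase alpha-primase and 1.95 within RPA, which was then no longer the most even. Within GINS it was 2.17 per kb of the longest transcript. With 1 library left out the spread ranged from 2.20 to 2.66 for MCM2-7, 2.44 to 3.06 for ORC, 2.39 to 2.71 for GINS, 1.18 to 1.65 for RFC, 2.02 to 2.28 for polymerase alpha-primase, 2.46 to 3.31 for polymerase delta, 4.31 to 4.92 for polymerase epsilon and 0.69 to 0.97 for RPA. The causes of these shifts were not tested. Replicates 2 and 3 hold a median of 81 and 52 counts per gene of the list, which limits what can be told for the low genes.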
